A study of Caenorhabditis elegans with 2 samples.

Results

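The nuclear genes of the mitochondrial respiratory chain were examined for binding of EGL-44, the TEA domain (TEAD) transcription factor of Caenorhabditis elegans. The members were the protein-coding genes on the nuclear chromosomes whose symbol begins with cox-, nuo-, atp-, ucr-, sdha-, sdhb-, sdhd-, cyc- or isp-, and this rule uses names only. It found 39 of 19973 nuclear protein-coding genes. They comprised 6 genes of complex I, 4 of complex II, 7 of complex III, 2 for cytochrome c, 7 for subunits of complex IV, 8 for assembly factors of complex IV and 5 of complex V. Not every respiratory chain gene has such a symbol, so further genes of the chain were followed as separate lists.

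EGL-44 was mapped by ChIP-seq, in which an antibody against GFP recovers the chromatin bound by a GFP-tagged protein, in 2 biological replicates of whole young adult worms aged 66.5 h. The worms were of strain RW12173, in which CRISPR insertion st12173 placed GFP at egl-44 with an unc-119(+) copy and loxP sites, in an unc-119(tm4063) III background. They had been synchronised as L1 larvae by starvation after bleaching, and their chromatin was sonicated (labelled size range 200 to 800). Both replicates had this genotype, stage and treatment, and no second group was profiled, so the values describe a single condition and compare genes, regions and replicates only. In whole worms, binding in a few cells and weak binding in many cells cannot be told apart.

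The respiratory chain passes electrons from NADH (complex I) or succinate (complex II) through ubiquinone to complex III, then through cytochrome c to complex IV, which reduces oxygen. Complexes I, III and IV pump protons out of the mitochondrial matrix, and complex V, the ATP synthase, uses their return to make ATP. Most subunits are encoded in the nucleus and imported, while a core set is encoded on the mitochondrial genome. TEAD proteins bind DNA through the TEA domain and are the DNA-binding partners of YAP in the Hippo pathway, and in worm neurons EGL-44 has EGL-46, a zinc finger protein, as its partner.

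Each deposited list gives regions with a summit, the point of highest signal, and a signal value. A promoter peak was a region of the pooled thresholded list whose summit fell in the window from 1000 bp before to 200 bp after any annotated transcript start of the gene. The thresholded lists hold regions at a global irreproducible discovery rate (IDR, the estimated rate of calls that would not be found again in a repeat) of 0.01 or less, while the ranked lists go down to much weaker regions. Scaling of the signal between libraries is not stated, so signals are compared only inside the same list. Ranks and top percentages given below order the regions of a list by signal, not by IDR. The files hold no read counts, so the depth behind each signal is unknown.

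The following DNA is printed because it carries the calls discussed below: 3 called summits that lie in different surroundings, and the complex II region with the highest signal among the members without a call. It is RefSeq genome sequence of assembly ce11 (WBcel235), written 5′ to 3′ on the strand of the gene, 100 bases each side of the summit except at cyc-2.1, where only the 110 bases between this gene and the ribosomal protein gene upstream are shown. The cyc-2.1 stretch is IV:4749013-4749122 on the minus strand, cox-5A is III:12905105-12905305 on the plus strand, cox-6B is III:2785967-2786167 on the plus strand and sdha-1 is X:8546169-8546369 on the minus strand. Capitals mark the word GAGAGA, read on the opposite strand, at cox-5A and sdha-1, and 36 bases of a small nucleolar RNA gene (D2021.6) at the end of the sdha-1 stretch.
cyc-2.1: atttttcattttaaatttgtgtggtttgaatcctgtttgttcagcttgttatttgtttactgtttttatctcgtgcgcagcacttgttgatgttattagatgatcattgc
cox-5A: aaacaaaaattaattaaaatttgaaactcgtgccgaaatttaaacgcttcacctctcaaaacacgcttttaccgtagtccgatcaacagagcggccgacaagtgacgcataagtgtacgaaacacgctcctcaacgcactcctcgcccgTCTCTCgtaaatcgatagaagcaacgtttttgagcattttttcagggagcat
cox-6B: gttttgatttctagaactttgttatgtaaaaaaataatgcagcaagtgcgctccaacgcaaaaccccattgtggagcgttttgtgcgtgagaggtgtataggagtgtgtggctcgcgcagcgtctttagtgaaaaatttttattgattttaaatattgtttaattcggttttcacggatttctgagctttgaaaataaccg
sdha-1: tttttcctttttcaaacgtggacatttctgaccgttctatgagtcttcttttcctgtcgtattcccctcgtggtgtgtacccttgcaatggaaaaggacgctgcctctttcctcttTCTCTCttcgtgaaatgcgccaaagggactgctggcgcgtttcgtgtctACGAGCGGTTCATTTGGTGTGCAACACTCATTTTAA

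Short words were sought on both strands within 100 bp of each summit, and no word is part of another. CATTCC, the core of the TEAD site, was present at 1 of the 9 called member summits, that of atp-1, against 8.59% of 1537 nuclear thresholded summits and 10.6% of 79812 nuclear ranked summits. GAGAGA was present at 1 of 9, the cox-5A stretch printed above, against 30.0% of thresholded and 13.1% of ranked summits. CTGCGTC and the E box CACGTG were present at 0 of 9, against 9.95% and 9.30% of thresholded summits. TATAAA was present at 2 of 9, atp-3 and cyc-1, against 12.9%. In the 250 bases before to 50 bases after the starts of all 39 members, CATTCC was present at 3 (atp-1, atp-4 and atp-5), against 12.5% of all nuclear coding promoters, and TATAAA at 15 against 37.9%. GC content around the called summits ran from 33.3% at cyc-2.1 to 53.2% at cox-5B, with a median of 42.3%, against 45.8% for all nuclear thresholded summits and 39.8% for ranked ones. No word was found at all 9 summits.

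The pooled list held 1553 regions, the conservative list 1442, and the lists of replicates 1 and 2 held 769 and 568. Replicate 2's list held 19 regions on the mitochondrial genome and replicate 1's held 0. Every result on the 39 members comes from nuclear chromosomes.

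EGL-44 promoter peaks were found at 9 of the 39 respiratory chain genes: the cytochrome c1 gene cyc-1, the cytochrome c gene cyc-2.1, the complex IV subunit genes cox-4, cox-5A, cox-5B, cox-6A and cox-6B, and the ATP synthase genes atp-1 and atp-3. This is 23.1% of the members (95% Wilson interval 12.6 to 38.3%, covering the counting of genes only), beside 4.03% of all nuclear protein-coding genes. The peaks were uneven across the chain. Among complex IV subunits 5 of 7 genes had a peak (71.4%, interval 35.9 to 91.8%), whereas 0 of 8 complex IV assembly factors (upper bound 32.4%), 0 of 6 complex I genes (upper bound 39.0%) and 0 of 4 complex II genes (upper bound 49.0%) had one. Complex V had a peak at 2 of 5 genes, complex III at 1 of 7 and cytochrome c at 1 of 2. These classes are small, and their differences were not tested.

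**Figure D1:**
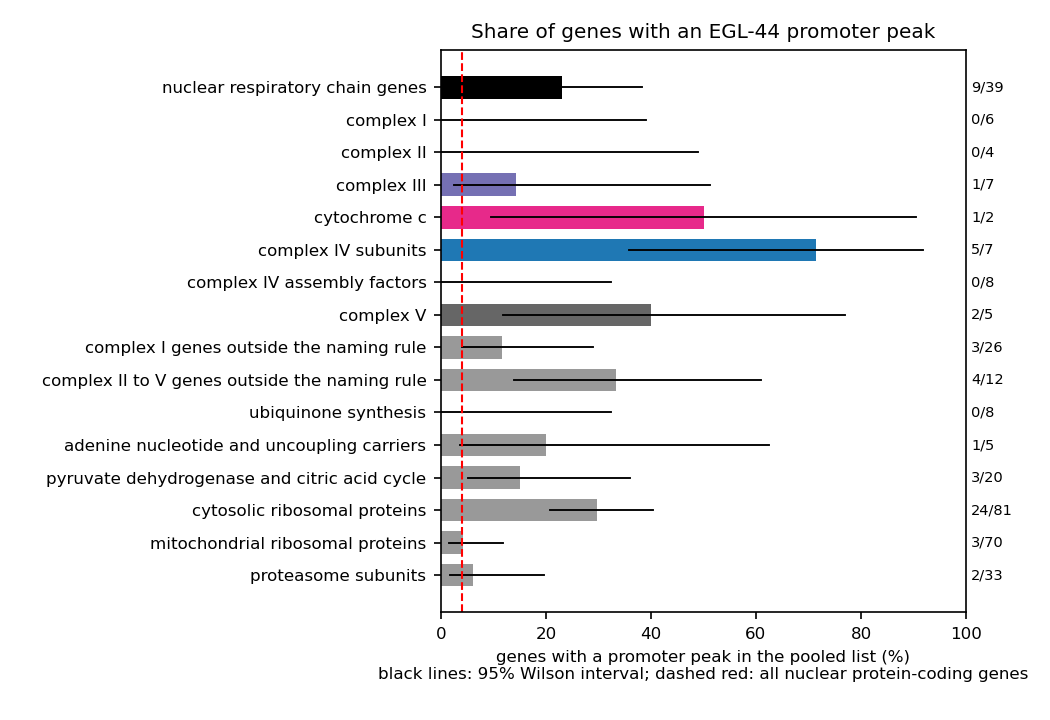
Share of genes with an EGL-44 promoter peak (percent, horizontal axis) for the respiratory chain members, for each complex and for related gene lists, with 95% Wilson intervals as black lines and the share of all nuclear protein-coding genes, 4.03%, as the dashed line. Complex IV subunits show the highest share, 5 of 7, and complex I, complex II and the assembly factors of complex IV show 0.

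The signals of the 9 called genes ran from 68.8 at cox-4 to 142 at cox-5B, with a median of 106, beside a median of 85.3 over the 805 nuclear coding genes with a promoter peak. Taking the strongest ranked region of any IDR, 35 of the 39 members had one in the promoter window, beside 63.8% of all nuclear protein-coding genes. The median signal of these regions was 42.2 over the 35 members and 28.5 over 12742 genes. The members without a promoter peak thus mostly had a weak ranked region rather than none. A ranked region was also common in lists described further on. It was present at 93.8% of cytosolic and 85.7% of mitochondrial ribosomal protein genes, 93.9% of proteasome subunit genes and 75% of ubiquinone synthesis genes.

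**Figure D2:**
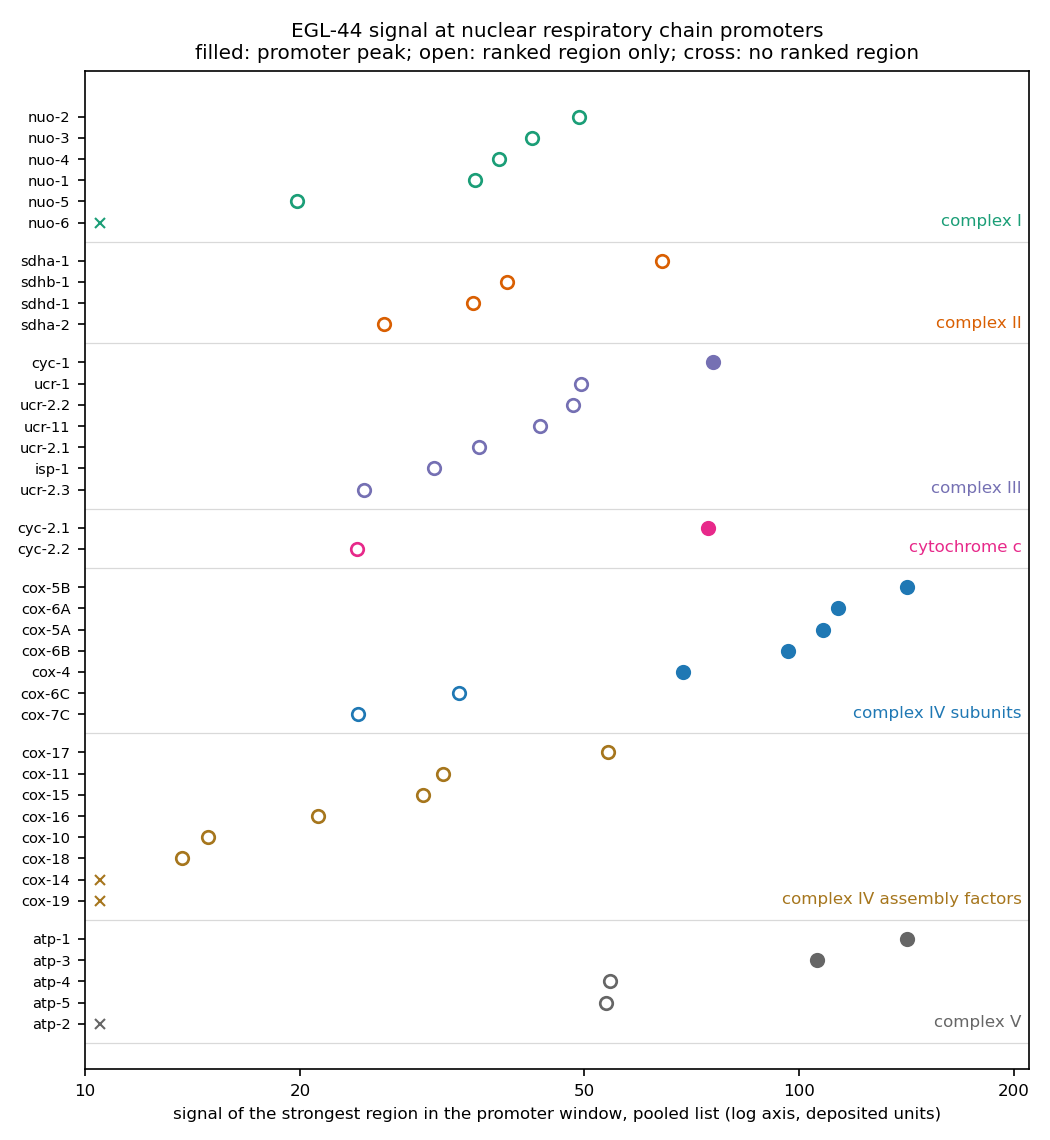
Signal of the strongest region in the promoter window of each member in the pooled list (deposited units, log axis), grouped by complex; filled circles are promoter peaks, open circles are regions of the ranked list only, and crosses mark the 4 members with no ranked region. The filled circles lie between 68.8 and 142 and the open circles between 13.7 and 64.3.

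Complex I, which takes electrons from NADH, had a ranked region at 5 of its 6 members, and none reached the IDR limit. The strongest was at nuo-2, the homologue of the human peripheral arm subunit NDUFS3, with a signal of 49.2 and an IDR of 0.134. Its summit lay 104 bp downstream of the start in a coding exon, and its signals in replicates 1 and 2 were 26.2 and 12.5. nuo-3 (42.2), nuo-4 (38.0), nuo-1 (35.2) and nuo-5 (19.8) followed. For nuo-1, the homologue of the human flavin-binding subunit NDUFV1, a region was ranked in replicate 1 (signal 33.9) and not in replicate 2. nuo-6 had no ranked region, and its nearest peak was 9904 bp downstream. The complex I signals all lay below the lowest called member. Calls and signals come from the same regions, so this ordering is not a separate result.

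Complex II, the succinate dehydrogenase shared with the citric acid cycle, held the strongest uncalled member. At sdha-1, one of the genes for the flavoprotein subunit, the signal was 64.3 and the IDR 0.0147, just outside the limit. The summit lay 248 bp upstream of the start, in the stretch printed above, and 65 bp from where the snoRNA gene D2021.6 starts. The region ranked in the top 4.25% of replicate 1 and the top 6.70% of replicate 2, with signals of 35.8 and 27.0, so both replicates listed it at a moderate rank. The other flavoprotein gene, sdha-2, had a signal of 26.2 from a summit in a coding exon of the neighbouring gene ndua-13. The iron-sulfur subunit gene sdhb-1 had 39.0 and the membrane anchor gene sdhd-1 had 34.9, the latter from a summit in an intron of the neighbour ilkp-1.

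Complex III, which passes electrons from ubiquinol to cytochrome c, had a promoter peak at cyc-1, the gene for cytochrome c1. Its region I:8024531-8024840 had a signal of 75.7 and an IDR of 0.00447, and the summit lay in intergenic DNA 264 bp upstream of the start, inside a gap of 458 bp to the same-strand gene C54G4.9. By rank the replicates were unequal. The region lay at the top 1.48% in replicate 1 (signal 49.1, IDR 0.0165) and at the top 15.2% in replicate 2 (signal 21.7, IDR 0.492). The peak was in neither replicate's thresholded list and not in the conservative list. The strongest uncalled complex III gene was ucr-1, a core subunit gene, with a signal of 49.5 and an IDR of 0.0144. Its summit was in its own coding exon, 282 bp downstream of the nearest of its 3 annotated starts. It counted because it lay in the upstream part of the window of a start farther into the gene. Of the second core subunit family, ucr-2.2 had a signal of 48.3, ucr-2.1 had 35.7 and ucr-2.3 had 24.6, and isp-1, the Rieske iron-sulfur protein gene, had 30.8 from a summit in a coding exon of its neighbour islo-1. ucr-11 had 43.4 in its window, and a thresholded peak of signal 123 lay outside it, 1319 bp upstream of the start. That peak is close to a start of the divergent gene tre-1, at -1350 bp from the ucr-11 start (negative is upstream). Within complex III, cyc-1 was thus the only gene inside the limit, and it was so in the pooled list alone.

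Cytochrome c, the mobile carrier between complexes III and IV, is encoded by a pair of genes in C. elegans. cyc-2.1 had a promoter peak at IV:4748896-4749205 with a signal of 74.6 and an IDR of 0.00382. The summit lay 39 bp upstream of the start, within the 111 bp step from the same-strand gene rpl-20, whose product is a large-subunit ribosomal protein; this is the stretch printed above. The signals in replicates 1 and 2 were 47.5 and 32.1, at the top 1.61% and 3.47% of the ranked lists, with IDRs of 0.0365 and 0.0167. Both replicates placed the region high and neither passed 0.01. The upstream gene rpl-20 had a stronger peak of its own at IV:4749998-4750143, with a signal of 255. At cyc-2.2 the signal was 24.0, with the summit in a coding exon of the neighbour cubn-1, so the pair of cytochrome c genes differed in this readout.

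Complex IV, cytochrome c oxidase, had the most peaks. cox-5B, the gene for a subunit on the matrix side, had the highest signal of all members, 142, at I:9788564-9788873. By signal the region ranked 169 of 79828, with an IDR of 4.38e-05. Its summit lay 6 bp upstream of one annotated start and 290 bp upstream of the other. The replicate signals were 78.5 and 68.5, at the top 0.312% and 0.335% of the lists, so both replicates ranked it near the top. cox-5A, another matrix-side subunit, had a signal of 108 at III:12905050-12905359, 286 bp upstream of its start. The region was stronger by rank in replicate 1 (signal 67.3, top 0.535%) than in replicate 2 (42.8, top 1.36%), and its IDR of 0.00992 in replicate 2 was just inside the limit.

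cox-6A had a signal of 113, with a summit 869 bp upstream of the nearest start, the farthest of the 9. The summit lay at a small RNA gene. The 51 bases centred on it occur 19 times exactly in the genome, against 1 time for each of the other 8 called summits. How reads that match several copies were placed is not given in the sources used here. The replicate signals were 60.4 and 54.4, at the top 0.784% and 0.675%, so the call was shared by both replicates.

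cox-6B, whose mammalian homologue lies on the side of the enzyme that meets cytochrome c, had a signal of 96.4 at III:2785912-2786221. The summit lay 135 bp upstream of the start of the short transcript and in an intron of a long transcript that starts 86404 bp away. It also fell in the windows of Y71H2AM.20, 119 bp upstream of that divergent gene, and of nduc-2, a complex I gene 785 bp downstream on the same strand. The signal was 66.2 in replicate 1, at the top 0.565%, and 32.4 in replicate 2, at the top 3.31% with an IDR of 0.664. The replicate 2 list still held a region in the window of nduc-2, but none in that of cox-6B. cox-4 had the lowest called signal, 68.8, at I:13659363-13659672, with an IDR of 0.00951 and a summit 390 bp upstream. Its replicate signals were 34.3 and 28.8, at the top 4.95% and 5.20% with IDRs of 0.143 and 0.119, so this call was moderate in both replicates and passed only in the pooled list.

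The remaining complex IV subunits had weak regions. cox-6C had a signal of 33.4, with an IDR of 0.374, from an intergenic summit 181 bp upstream. cox-7C had 24.1 from a summit 955 bp upstream in a coding exon of F26E4.4, and neither replicate ranked a region in its window. The nearest peak to cox-7C was the cox-5B peak, 15547 bp away on the same chromosome. Both uncalled subunit genes had signals below that of cox-4, which is likewise not separate from the lack of a call.

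The 8 assembly factors of complex IV include heme synthesis enzymes and copper chaperones, as known mainly from yeast and human. Their strongest region was at cox-17, a copper chaperone gene, with a signal of 54.0 and an IDR of 0.183 in its own intron 111 bp downstream of the start. cox-11 (31.8), cox-15 (29.8), cox-16 (21.2), cox-10 (14.9) and cox-18 (13.7) had weaker regions, and cox-14 and cox-19 had none. cox-10 and cox-15 encode the enzymes that convert heme B to heme O and heme O to heme A, and cox-11 and cox-19 serve copper delivery. The lower end of the member range, 13.7 to 21.2, was made up of cox-18, cox-10, nuo-5 and cox-16. Thresholded peaks lay 3899 bp upstream of cox-10 (signal 81.3), 3679 bp upstream of cox-11 (110.2) and 3096 bp upstream of cox-18 (104), all outside the window. The one upstream of cox-11 is the promoter peak of the ribosomal protein gene rpl-12, with its summit 6 bp from the rpl-12 start.

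Complex V, the ATP synthase, had promoter peaks at the genes for the alpha subunit of the catalytic head, atp-1, and for the stalk subunit OSCP, atp-3. atp-1 had a signal of 141 at I:12652111-12652420, ranked 171 with an IDR of 5.59e-05, and its summit lay 11 bp upstream of the start. The replicate signals were 71.6 and 65.9, at the top 0.425% and 0.384%, so atp-1 stood beside cox-5B as the pair of members highest in both replicates. The divergent gene mcrs-1 starts 179 bp from the same summit. atp-3 had a signal of 106 at I:5429808-5430117, with a summit 55 to 340 bp upstream of its 4 annotated starts and 194 bp from the divergent gene F27C1.2. Its replicate signals were 52.7 and 43.6, at the top 1.17% and 1.24%, with IDRs of 0.0157 and 0.0134. Both replicates thus ranked atp-3 alike and just outside their own limits, while the pooled IDR was 0.000432.

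The other members of complex V were close to the limit or had a peak outside the window. The stalk subunit genes atp-4 and atp-5 had signals of 54.3 and 53.6 with IDRs of 0.0207 and 0.0335. The atp-4 summit was in its own coding exon, 96 bp downstream of the start, and the atp-5 summit was in an exon of the divergent neighbour lmtr-3. atp-2, the gene for the catalytic beta subunit, had no ranked region in its window, but a thresholded peak of signal 58.9 lay 336 bp downstream of its start. The genes for the alpha and beta subunits of the catalytic head therefore differed in where EGL-44 signal lay.

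By replicate, 5 members had a promoter peak in replicate 1's thresholded list, beside 2.29% of all nuclear protein-coding genes, and 4 in replicate 2's, beside 1.47%. The 4 in both lists were cox-5A, cox-5B, cox-6A and atp-1, while cox-6B was in that of replicate 1 only. cyc-1, cyc-2.1, cox-4 and atp-3 were in neither list and were called from the pooled data. The conservative list held 7 of the 9, all but cyc-1 and cox-4, beside 3.80% of all genes. No member without a pooled promoter peak had one in any of the other thresholded lists. In the ranked lists, 29 members had a region in replicate 1, beside 51.0% of all genes, and 26 in replicate 2, beside 47.1%. All 9 called members were ranked in both replicates, as were 16 of the 30 others. The pooled calls were made from these same replicates, so this is not independent support, and the share over all genes was not counted. At the 9 called members, the pooled summit and the summit of the overlapping region in a replicate were at most 68 bp apart, at cyc-2.1 in replicate 1.

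**Figure D3:**
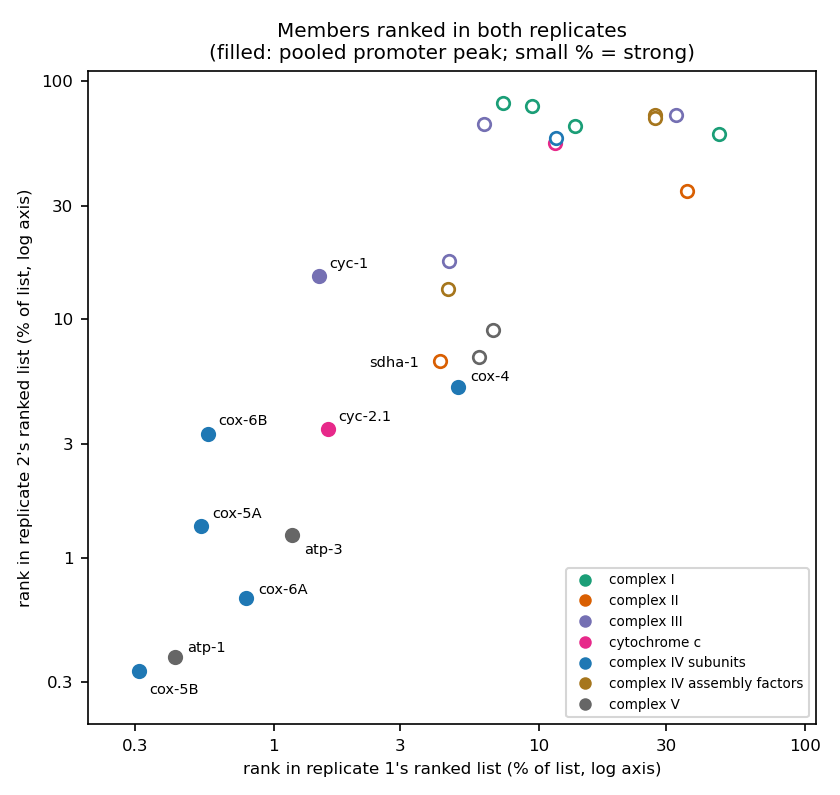
Rank by signal of the strongest region in the promoter window as a percentage of each replicate's ranked list (both axes log scaled, small values are strong), for the members ranked in both replicates; filled circles have a pooled promoter peak. cox-5B and atp-1 lie at the lower left, at 0.312% and 0.425% in replicate 1, and cyc-1 lies off the others with 1.48% in replicate 1 and 15.2% in replicate 2.

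The called summits were mostly intergenic and close to their gene. In 8 of 9 the summit was intergenic, with cox-6B in an intron of its own long transcript as the exception. The intergenic share over the 805 genes was not counted. The member was the nearest protein-coding gene at 8 of 9, beside 74.9% of the 805 genes, and the nearest gene of any type at 5 of 9. With summits given to the nearest gene of any type, 430 nuclear coding genes had a peak in place of 805. Non-coding or pseudogene starts were nearer at cox-4, cox-6A and atp-3. The median position was 135 bp upstream of the nearest start, beside 284 bp over the 805 genes, and 4 of 9 summits (cox-5B, atp-1, cyc-2.1 and atp-3) lay within 100 bp of it, beside 16.8%. A window shared with another coding gene was found at 3 of 9 (cox-6B, atp-1 and atp-3), beside 42.9%, and a small RNA gene within 300 bp at 1 of 9 (cox-6A), beside 13.5%. Which gene a shared region acts on was not tested.

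**Figure D4:**
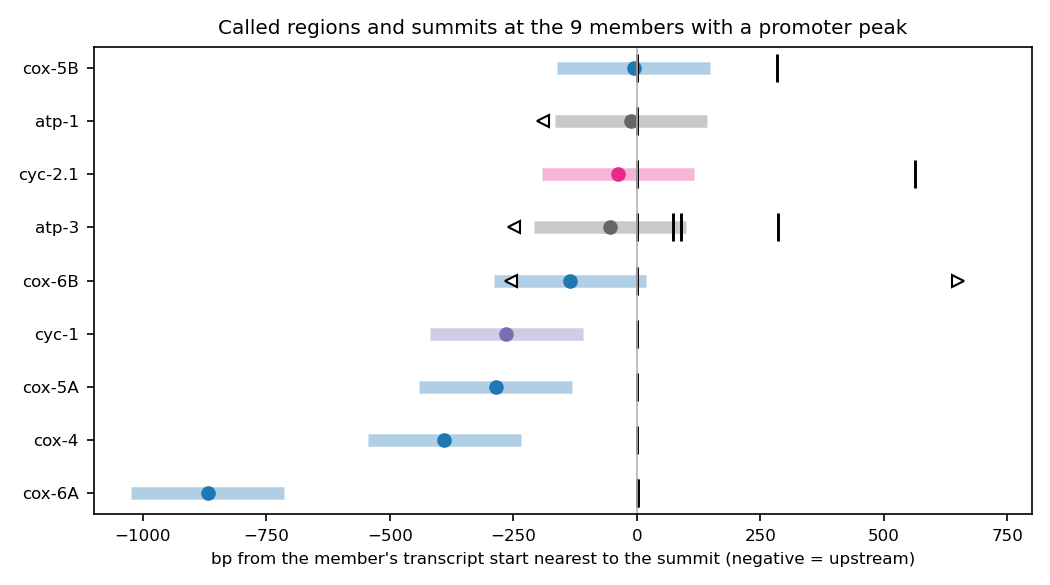
Called regions (bars) and summits (circles) at the 9 members with a promoter peak, in bp from the annotated start nearest to the summit (negative values are upstream); short vertical lines are the member's annotated starts and open triangles are starts of other coding genes whose window holds the summit, pointing the way they are transcribed. The summits at cox-5B, atp-1, cyc-2.1 and atp-3 lie within 100 bp of the start and that of cox-6A lies 869 bp upstream.

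Many respiratory chain genes follow closely behind another gene. A same-strand coding neighbour lay within 500 bp upstream of 15 of the 39 members (38.5%), beside 18.1% of all nuclear coding genes; in C. elegans many genes so placed are transcribed together as operons. Peaks were present at 2 of these 15 members, cyc-1 and cyc-2.1, and at 7 of the other 24. Over all nuclear coding genes the shares were 3.21% with such a neighbour and 4.21% without. Several uncalled members had a very close upstream neighbour: 20 bp at nuo-2, 96 bp at atp-4 and cox-19, 100 bp at cox-15, 102 bp at ucr-11, and 103 bp at nuo-4 and cox-17. Their promoter windows reach into the neighbour, by a share that was not measured, and whether the neighbour's promoter serves them was not tested.

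By chromosome, 5 of the 11 members on chromosome I had a peak (cyc-1, cox-4, cox-5B, atp-1 and atp-3), beside 4.90% of all coding genes there, and 3 of 9 on chromosome III (cox-5A, cox-6A and cox-6B), beside 5.45%. On chromosome IV 1 of 6 members had one, cyc-2.1, beside 3.99%. On chromosomes II, V and X the counts were 0 of 5, 0 of 5 and 0 of 3, with all-gene shares of 3.57%, 3.10% and 4.06%. The called members were thus on chromosomes I, III and IV. Of the uncalled ATP synthase genes, atp-4 and atp-5 were on chromosome V and atp-2 was on chromosome III.

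Respiratory chain genes with other symbols were counted beside the same 4.03% of all nuclear protein-coding genes. Of 26 complex I genes outside the naming rule, 3 had a promoter peak (11.5%): nduf-2.2 (signal 99.1), nduc-2 (96.4, the region shared with cox-6B) and nduf-9 (95.9). All 3 genes are on chromosome III. The strongest summit of each was 649 to 825 bp upstream, with another coding gene nearer to it. With every summit considered, the count was 1 with the narrower window of 500 bp upstream and 100 bp downstream. It was also 1 when each summit was given only to the nearest gene, of any type or coding. A weaker summit closer to a start was thus also present among these genes. Of 12 genes of complexes II to V outside the rule, 4 had a peak (33.3%): the complex II anchor gene mev-1 (95.6), the copper chaperone gene sco-1 (84.9), the ATPase inhibitor gene mai-1 (73.6) and the ATP synthase subunit g gene asg-2 (66.8). mev-1 and sco-1 thus show that complex II and the assembly of complex IV were not without a peak once genes of other names were counted. mev-1 and sco-1 were in replicate 1's list and not in replicate 2's, and mai-1 and asg-2 were in neither.

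Pathways next to the chain were given for scale, again beside 4.03% of all genes. Ubiquinone synthesis had a peak at 0 of 8 genes and adenine nucleotide and uncoupling carriers at 1 of 5, ucp-4 (70.0). Pyruvate dehydrogenase and the citric acid cycle had 3 of 20, aco-2 (mitochondrial aconitase, 129.7), sucl-1 (succinyl-CoA ligase, 94.4) and idhg-1 (isocitrate dehydrogenase, 84.6). Cytosolic ribosomal protein genes had 24 of 81 (29.6%), mitochondrial ribosomal protein genes 3 of 70 (4.29%) and proteasome subunit genes 2 of 33 (6.06%), the latter 2 shares being near the all-gene share. In the lists of replicates 1 and 2 alone the cytosolic ribosomal count was 15 and 11, the mitochondrial ribosomal count 3 and 1, and the citric acid cycle count 1 and 1. The share among the 39 members, 23.1%, thus lay between those of the mitochondrial and the cytosolic ribosomal proteins, and the differences between the lists were not tested.

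At the IDR limit, the called members just inside were cox-4 (0.00951), cyc-1 (0.00447) and cyc-2.1 (0.00382), and those just outside were ucr-1 (0.0144), sdha-1 (0.0147), atp-4 (0.0207) and atp-5 (0.0335). The 30 members without a promoter peak comprised 26 with a ranked region, of signals 13.7 to 64.3 with a median of 35.1, and 4 with none (nuo-6, cox-14, cox-19 and atp-2). Their nearest thresholded peak was 336 to 80936 bp away, from atp-2 to ucr-2.1, and it was within 5000 bp for 5 of them. Of the 23 ranked regions that met the limit and were left out of the thresholded list, 0 lay at a member.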

How the data were processed

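Per the files' accompanying notes, the authors called peaks against a control on assembly ce11 and ranked them by IDR. Their aligner, caller, versions and read placement are not given in the notes or labels. The 8 deposited peak lists, pooled, conservative and per replicate, give a signal value per region, with no stated scaling. The authors' ranked lists also give the −log10 of the global IDR, which was converted to the IDR. The ranks given here were instead numbered by signal within each list. A further 8 columns of input values in the ranked lists name no replicate and were not used.

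Transcript starts came from Ensembl release 115 (WBcel235) and sequence from RefSeq. Chromosome lengths were compared, and 0 regions lay beyond an end. All 39 members matched a RefSeq symbol, and 2 symbols of the other lists had no match. Upstream neighbours were measured to the nearest same-strand coding gene. Small RNA genes were counted within 300 bp of a summit. The only group had 2 replicates and no control group, so no test between conditions was made. Shares carry 95% Wilson intervals, which cover the counting of genes and not the spread between worms. Genes that share a region are not independent.

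The members and lists were chosen with earlier results of these data known. Named genes were every member with a promoter peak, the strongest uncalled member of each complex, members with no ranked region and the strongest genes of the other lists; other members are named to account for all 39. The sequence at the cox-6A summit is not reported here. The promoter assignment was tested on simulated data. Alternatives covered the list, each replicate alone, the IDR limit, the window, the assignment and small RNA genes. Scripts ran in Python 3.11.15 with SciPy 1.17.1 and NumPy 2.4.6, and figures were drawn with Matplotlib 3.10.9.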

Additional observations from a re-analysis of the deposited data

How the results depend on the processing

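The 9 members with a promoter peak became 7 in the conservative list, 4 to 5 when either replicate was left out, 6 at an IDR of 0.001 and 13 at 0.05, where sdha-1, ucr-1, atp-4 and atp-5 were added. A window of 500 bp upstream and 100 bp downstream gave 8, losing cox-6A, and one of 2000 and 500 bp gave 11, adding ucr-11 and atp-2. The peak so added for ucr-11 is the one close to a start of tre-1. Overlap of 1 bp in place of the summit gave 10, adding atp-2. Without peaks at small RNA genes 8 were left, losing cox-6A. Giving each summit to the nearest gene of any type left 5, losing cox-4, cox-6A, cox-6B and atp-3, and giving it to the nearest coding gene, a setting chosen after seeing the data, left 8, losing cox-6B. The share of all nuclear coding genes, 4.03%, moved to 1.74% at an IDR of 0.001, 7.21% at 0.05, 2.15% with the nearest gene of any type and 1.47 to 2.29% with a replicate left out. In each setting the share among members was the higher of the pair, lowest at 10.3% without replicate 1. Complex IV subunits fell to 3 of 7 without replicate 1 and to 2 of 7 with the nearest gene of any type, and the cyc-2.1 signal became 255, that of the rpl-20 peak, under overlap and the wide window. Depth is unknown, and with 2 replicates the spread of a signal could not be estimated.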

Other observations

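The mitochondrial genome encodes 12 annotated coding genes of the same chain, which the naming rule leaves out. In replicate 2's thresholded list 9 of them held a summit within the gene, and in the pooled list 7 did, including ND1 and COX3 with 2 summits each. In replicate 1's thresholded and ranked lists, and in the conservative list, the count was 0. ND6 held 0 summits in every list counted. The source of the mitochondrial signal was not tested.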
